A study of Mus musculus with 7 samples.

Results

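The genes described here carry the insulin signal inside the cell: the receptor Insr, its substrates Irs1 and Irs2, the lipid kinase subunit Pik3r1, the kinases Akt1 and Akt2, the transcription factor Foxo1, the adaptor Grb10, the pseudokinase Trib3 and the deacetylase Sirt1. They were found by exact symbol in the platform annotation of the array. Of the 10 genes, 9 had a probe, among 16468 named genes in all, and Trib3 is not analysed here. Akt2 had 2 probes, which were averaged, and each of the other genes had 1.

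Liver RNA came from 7 mice. The wild-type group held 1 female (replicate 3) and 3 males (replicates 2, 3 and 4). The group carrying a Zfp90 transgene, Zfp90 being a zinc finger protein, held 1 female (replicate 1) and 2 males (replicates 1 and 2), and the controls were littermates. Per the sample labels, the animal's RNA carried Cy5 and was compared with a reference labelled with Cy3, which pooled the livers of 4 wild-type animals, males and females together. The series' design also names dye swaps, but the sources used here do not give how they entered the ratios. Strain, age, feeding state, and the promoter and line of the transgene are not given in the sources used here. Every value below is a log2 ratio of animal to pool, so 0 is the level of the pool and levels cannot be compared between genes.

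Insulin binding activates the receptor's tyrosine kinase, which phosphorylates the IRS proteins. These recruit phosphoinositide 3-kinase, whose lipid product brings AKT to the membrane, and AKT phosphorylates FOXO1 and keeps it out of the nucleus. In liver this arm restrains glucose production and promotes lipid synthesis, and transcription of Irs2 is itself a FOXO target that is higher in fasting. Most of the signal passes by phosphorylation, which RNA levels do not show.

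Over all probes, 3 of the 21 pairs of arrays correlated below -0.3, from -0.497 (wild-type male 4 with the transgenic female) to a highest value of 0.526. The Y-linked gene Kdm5d read -3.22 and -2.54 in the females and 0.14 to 0.66 in the males, and the direction was taken from it as animal over pool. It is plain in the females, but the 0.14 of wild-type male 3 was below the median SD of all features, 0.17. A turned sign of 1 array alone was not tested. With all signs turned, each difference below would change sign and keep its p. The targeted gene Zfp90 read 0.34, 0.58 and 0.45 in the transgenic female and males 1 and 2, against 0.37 in the array labelled wild-type female and -0.15, -0.29 and -0.11 in wild-type males 2, 3 and 4. It differed by 0.48 ± 0.15 (SE; limma adjusted p = 0.678) and did not separate the 2 females. The labels were kept, and "the wild-type female" below means the array so labelled, in each difference that uses it. The tissue itself could not be checked from ratios to a pool of the same tissue: the 11 measured hepatocyte markers had medians of -0.12 to 0.18 per array.

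Insr, the receptor, stayed close to the pool on every array. It read 0.04 in the wild-type female and -0.01, 0.09 and -0.12 in wild-type males 2, 3 and 4. It read 0.00 in the transgenic female and 0.02 and -0.12 in transgenic males 1 and 2. The genotypes overlapped throughout. The difference was -0.04 ± 0.09 (SE; limma adjusted p = 0.981; exact permutation p = 0.571, two-sided), and its 95% interval ran from 0.836 to 1.13 times the wild-type level. Here and below, the permutation p tests the raw difference of the group means, without sex, and not the fitted difference.

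Irs1 and Irs2 are the main receptor substrates of the liver, and their start regions are shown because both hold an insulin response core. The 120 bases before each RefSeq transcript start are given on the gene's strand, on GRCm38.p6, at chr1:82291440-82291559 (minus strand) for Irs1 and chr8:11008930-11009049 (minus strand) for Irs2. Capitals mark the core CAAAACA, read here from its other strand as TGTTTTG, and the E-box CACGTG.
Irs1: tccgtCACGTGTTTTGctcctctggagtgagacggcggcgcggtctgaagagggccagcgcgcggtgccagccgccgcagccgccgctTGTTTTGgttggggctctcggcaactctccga
Irs2: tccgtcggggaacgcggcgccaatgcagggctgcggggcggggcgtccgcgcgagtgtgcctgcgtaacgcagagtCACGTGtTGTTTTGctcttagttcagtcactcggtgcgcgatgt
In Irs1 the cores began 111 and 32 bases before the start, and the E-box at 115 overlapped the first of them. In Irs2 the core began at 37 and the E-box at 44, with 1 base between them.

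RefSeq windows of 300 bases, from 250 before to 50 after a start, were held for 15 starts of the listed genes, with no entry for Insr. Both strands were searched. CAAAACA was in 6.28% of all 32851 windows and, of the listed genes, in Irs1 and Irs2. CACGTG, a motif added after the sequences were seen, was in 7.15% of windows and in Irs1, Irs2 and Sirt1. Both motifs, with their downstream ends at most 15 bases apart, occurred in 9 windows (0.0274%), Irs1 and Irs2 among them. The pairing and the 15-base limit were also set after the Irs1 and Irs2 sequences were seen. That both genes are among the 9 was therefore fixed in advance. The FOXO element GTAAACA was in 3.65% of windows and in 1 window of the listed genes, of Akt1. The C/EBP-ATF composites TGATGCAAT (0.192%) and TTGCATCA (0.895%) and the cAMP element TGACGTCA (1.79%) were in none of the 15. These are matches of letters and show no binding.

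Irs1 read 0.09 in the wild-type female and -0.09, -0.02 and -0.14 in wild-type males 2, 3 and 4. It read 0.15 in the transgenic female and 0.02 and -0.14 in transgenic males 1 and 2. Both females lay above all 5 males, and the genotypes overlapped. The genotype difference was 0.03 ± 0.09 (SE; limma adjusted p = 0.986; exact permutation p = 0.629, two-sided).

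Irs2 varied most of the 9 genes, over a range of 1.22. It read 0.29 in the wild-type female and -0.03, 0.12 and -0.82 in wild-type males 2, 3 and 4. It read 0.25 in the transgenic female and -0.45 and -0.93 in transgenic males 1 and 2. The 3 lowest arrays were males of both genotypes, and the 2 highest were the females. The transgenic mean was -0.37 ± 0.59 (SD, n = 3), and the wild-type mean was -0.11 ± 0.49 (SD, n = 4). The fitted genotype difference, with sex as a term, was -0.32 ± 0.25 (SE; limma adjusted p = 0.835). Its 95% interval, from 0.537 to 1.19 times the wild-type level, was the widest of the 9. The raw difference of the means was -0.26 (exact permutation p = 0.514, two-sided).

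**Figure D1:**
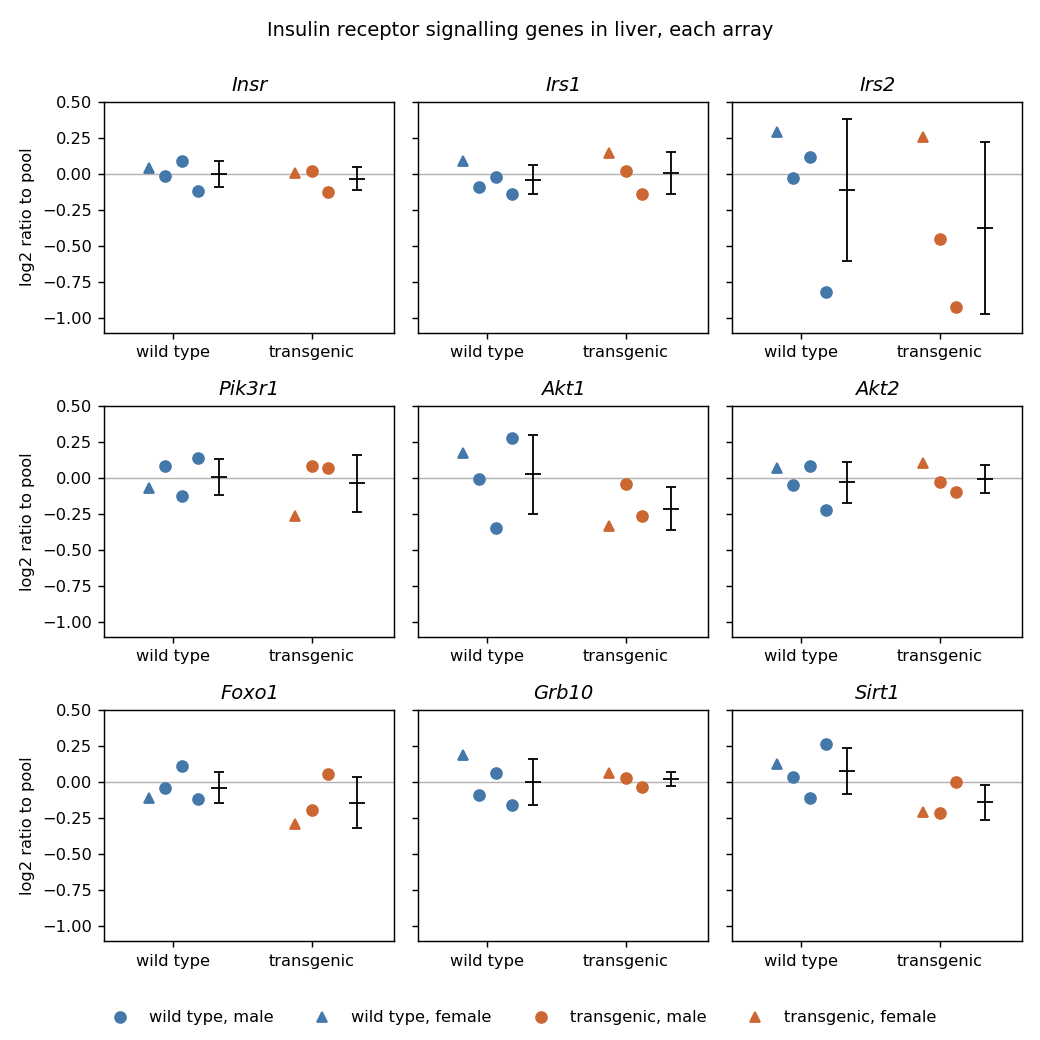
Log2 ratio of animal to pool (vertical axis) for each of the 9 measured genes, with 1 point per array, split by genotype (horizontal axis) and marked by sex. Irs2 spans -0.93 to 0.29, while Insr stays between -0.12 and 0.09.

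Pik3r1 encodes the regulatory subunit that docks phosphoinositide 3-kinase on the IRS proteins. It read -0.07, 0.09, -0.12 and 0.14 in the wild-type female and males 2, 3 and 4. It read -0.26, 0.08 and 0.07 in the transgenic female and males 1 and 2. The transgenic female was the lowest array and wild-type male 4 the highest. The genotype difference was -0.03 ± 0.10 (SE; limma adjusted p = 0.988; exact permutation p = 0.686, two-sided).

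Akt1, a kinase isoform expressed in most tissues, read 0.18, -0.004, -0.35 and 0.28 in the wild-type female and males 2, 3 and 4. It read -0.33, -0.04 and -0.26 in the transgenic female and males 1 and 2. All 3 transgenic arrays were below 0, but wild-type male 3 was lower than each of them. The means were -0.21 ± 0.15 (SD, n = 3) and 0.03 ± 0.27 (SD, n = 4). The fitted difference was -0.24 ± 0.17 (SE; limma adjusted p = 0.812; exact permutation p = 0.257, two-sided).

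Akt2, the isoform most tied to insulin's metabolic actions in liver, read 0.07, -0.05, 0.08 and -0.22 in the wild-type female and males 2, 3 and 4. It read 0.10, -0.03 and -0.09 in the transgenic female and males 1 and 2. The fitted genotype difference was 0.01 ± 0.10 (SE; limma adjusted p = 0.998; exact permutation p = 0.771, two-sided). The 2 probes were close, at -0.18 and -0.27 on the array where they were farthest apart, wild-type male 4.

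Foxo1, which drives glucose-producing genes when AKT is inactive, read -0.11, -0.04, 0.11 and -0.11 in the wild-type female and males 2, 3 and 4. It read -0.29, -0.19 and 0.06 in the transgenic female and males 1 and 2. The 2 lowest arrays were transgenic, and transgenic male 2 lay among the wild-type arrays. The fitted difference was -0.09 ± 0.11 (SE; limma adjusted p = 0.915; exact permutation p = 0.371, two-sided).

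Sirt1, which deacetylates FOXO proteins among others, read 0.13, 0.04, -0.11 and 0.27 in the wild-type female and males 2, 3 and 4. It read -0.21, -0.21 and 0.004 in the transgenic female and males 1 and 2. Only transgenic male 2 fell within the wild-type range. The means were -0.14 ± 0.12 (SD, n = 3) and 0.08 ± 0.16 (SD, n = 4). The fitted difference of -0.22 ± 0.12 (SE) had the smallest limma p of the 9 genes, and it did not pass (adjusted p = 0.760; exact permutation p = 0.114, two-sided).

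Grb10, an adaptor that binds the active receptor and dampens its signal, read 0.19, -0.09, 0.07 and -0.16 in the wild-type female and males 2, 3 and 4. It read 0.06, 0.03 and -0.03 in the transgenic female and males 1 and 2. The transgenic arrays lay inside the wild-type range. The difference was 0.01 ± 0.10 (SE; limma adjusted p = 0.998; exact permutation p = 0.857, two-sided).

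Of the 9 genes, 0 passed an adjusted p of 0.05 for genotype in limma, where 0.0% of all 22218 features did. At an unadjusted p under 0.05 the count was also 0 of 9, against 6.91% of all features. That count was 2 of 9 without wild-type male 3, when the count over all features went from 1536 to 3538, and 1 of 9 without wild-type male 4, when it went to 1029. In 0 of 9 did all transgenic arrays lie above all wild-type arrays (3.17% of features) or below them (2.84%). The fitted differences were positive for 3 genes and negative for 6, with a median of -0.04 against -0.01 over all features. With 35 possible splits of the arrays, the smallest two-sided permutation p was 0.0286. A p that misses the threshold does not show equal levels, and the intervals give the sizes these 7 arrays leave possible: 0.836 to 1.13 times wild type for Insr, 0.706 to 1.046 for Sirt1 and 0.647 to 1.11 for Akt1. In liver samples, fewer cells of a type and less RNA per cell cannot be told apart.

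Among males alone, 2 transgenic against 3 wild type, 0 of 9 genes passed in limma (0.0315% of features did), and 0 of 9 at an unadjusted p under 0.05 (6.96%). In 0 of 9 did the transgenic males lie wholly above (11.2% of features) or below (11.4%) the wild-type males. The largest differences were -0.44 ± 0.30 (SE) for Irs2, -0.17 ± 0.15 for Sirt1 and -0.13 ± 0.19 for Akt1. With 1 male left out, Irs2 ranged from -0.73 (without wild-type male 4) to -0.21 (without transgenic male 2), and Sirt1 from -0.28 (without transgenic male 2) to -0.0606 (without transgenic male 1). The genotype difference was also compared between the sexes, with 1 female per genotype. The interaction passed for 0 of 9 genes (0.072% of features), and for 0 of 9 at an unadjusted p under 0.05 (8.42%). Its largest values were 0.41 ± 0.55 (SE) for Irs2 and -0.38 ± 0.36 for Akt1.

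**Figure D2:**
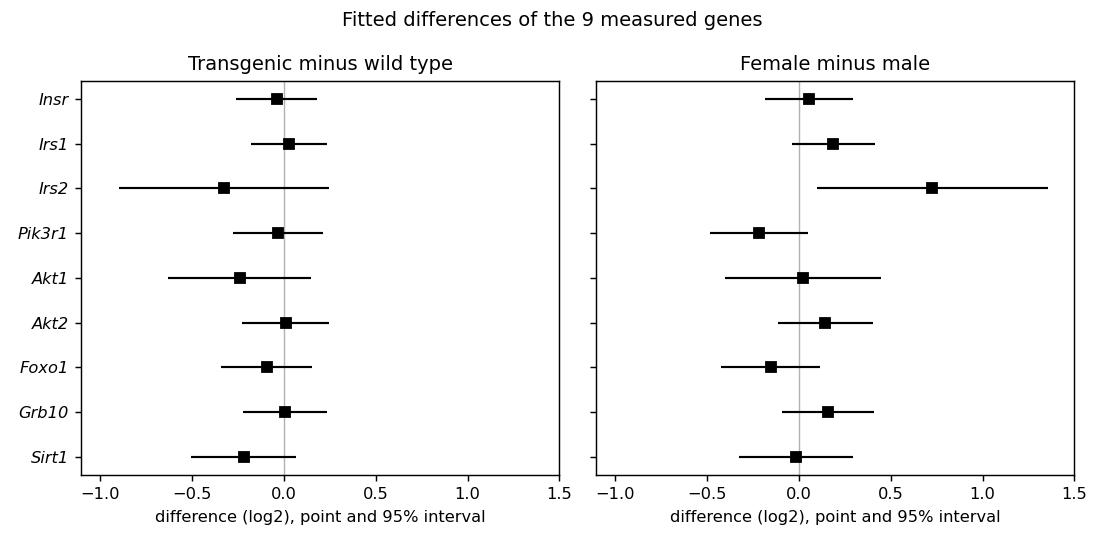
Fitted log2 differences of the 9 measured genes between genotypes and between sexes, each as a point with its 95% interval from limma. The genotype interval of every gene includes 0, and the sex interval of Irs2, 0.10 to 1.35, lies above 0.

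Females differed from males most in Irs2. The difference, female minus male, was 0.73 ± 0.27 (SE), or 1.66-fold, with a limma adjusted p of 0.463. It was the only one of the 9 genes at an unadjusted p under 0.05 (9.23% of all features), and 0 of 9 passed after adjustment, where 0.351% of features did. Both females lay above all males in 2 of 9 genes, Irs1 and Irs2 (6.04% of features), and below them in 0 of 9 (6.83%). For Irs1 the difference was 0.19 ± 0.10 (SE; limma adjusted p = 0.641), and for Pik3r1 -0.21 ± 0.11 (adjusted p = 0.659). The value of Pik3r1 was -0.10 without the transgenic female and -0.34 without the wild-type female. The remaining 6 genes differed by -0.15 (Foxo1) to 0.16 (Grb10), and that of Grb10 was 0.0613 without the wild-type female and 0.25 without the transgenic female.

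The 14 measured macrophage markers also ran higher in females in the fit, but both females lay above all males in only 4 of 14 (6.04% of features). Of the cell type marker lists, only this one and hepatocytes are described here. Their medians per array were 0.79 in the array labelled wild-type female, 0.41 in the transgenic female, -0.61, -0.65 and -0.12 in wild-type males 2, 3 and 4, and 0.36 and 0.16 in transgenic males 1 and 2. All 14 had a positive sex difference (median 0.71), as did 11617 of all 22218 features, and 6 of 14 were at an unadjusted p under 0.05 (9.23% of features). For genotype 11 of 14 were positive (median 0.37). In males alone the median was 0.71, 9 of 14 were at an unadjusted p under 0.05 (6.96% of features), and in 10 of 14 the transgenic males lay wholly above the wild-type males (11.2%). The interaction had a median of -1.19, with 9 of 14 at an unadjusted p under 0.05 (8.42%). In none of these 4 comparisons did a marker pass after adjustment in limma. Their part in the values of Irs1 and Irs2 was not tested.

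Irs2 had the widest spread of the 9 genes. Its SD over the 7 arrays was 0.51, and 96.6% of all features had a smaller one. Akt1 followed with 0.25 (75.8%) and Sirt1 with 0.18 (54.7%). The other 6 lay below the median SD of all features, 0.17, and Insr was lowest at 0.08 (7.71%). Wild-type male 4 and the transgenic female had opposite signs in 8 of the 9 genes, against 70.0% of all features. Wild-type male 4 was the highest array for Pik3r1, Akt1 and Sirt1.

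**Figure D3:**
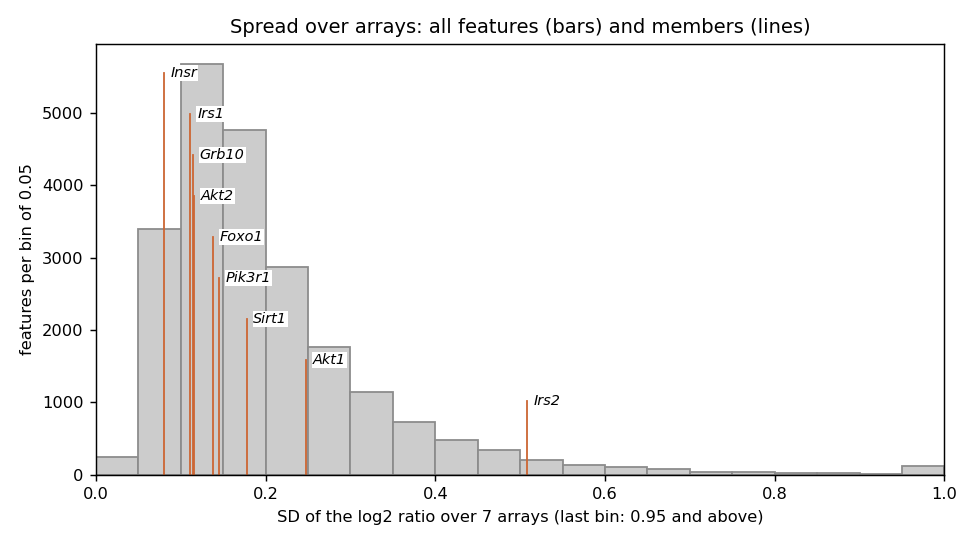
Number of features (vertical axis) by the SD of their log2 ratio over the 7 arrays (horizontal axis, in bins of 0.05), with a line at the SD of each of the 9 measured genes. Irs2 stands at 0.51 in the upper tail, and 6 of the 9 lines lie below the median of all features, 0.17.

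Genes whose 7 ratios were most like those of Irs2 were Rnase4, Aldh3a2 and Gpr34, with root-mean-square differences of 0.158, 0.179 and 0.189. Among the other measured genes of the 9, the closest to Irs2 was Akt2 at 0.432. Sirt1 was most like Nup37 (0.0403), Tcp1-ps1 (0.0455) and Hoxd12 (0.0463). Within the 9 genes the closest pairs were Insr with Akt2 (0.0604), Irs1 with Akt2 (0.0611) and Akt2 with Grb10 (0.0655).

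Another 137 genes of the pathway and its transcriptional targets were listed by role, of which 122 were measured. For genotype, 51 were positive and 71 negative, with a median of -0.03, and 0 passed in limma. At an unadjusted p under 0.05 there were 14, 5 positive and 9 negative, against 6.91% of all features. With 1 male array left out, the count was 35 (wild-type male 3), 9 (wild-type male 2, and also male 4), 8 (transgenic male 1) or 10 (transgenic male 2). The count over all 22218 features went from 1536 to 3538, 983, 1029, 804 and 1522 without wild-type males 3, 2 and 4 and transgenic males 1 and 2. Of the 122 genes, 7 were at that p in males alone (6.96% of features), which is also the fit without either female. All transgenic arrays lay above all wild-type arrays in 3 of the 122 genes (3.17% of all features) and below them in 7 (2.84%). Of the 10 lists, 2 are picked out after their values were seen, as among the most one-sided. Genes induced by insulin were positive in 11 of 12 (median 0.11), where 10719 of 22218 features were positive, with 1 of 12 at an unadjusted p under 0.05. In males alone 8 of these genes were positive and 4 negative, with 3 of 12 at that p, 2 positive and 1 negative (6.96% of features). The AKT module was negative in 10 of 12 (median -0.18), with 3 of 12 at an unadjusted p under 0.05, and in males alone also negative in 10, with 0 at that p.

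Fasn, the fatty acid synthase, read 0.81, 0.70 and 1.06 in the transgenic female and males 1 and 2, and 0.48, 0.28, -0.78 and 0.12 in the wild-type female and males 2, 3 and 4. The genotypes did not overlap, and the difference was 0.80 ± 0.28 (SE; limma adjusted p = 0.715). Sos1, a Ras exchange factor, differed by 0.33 ± 0.12 (adjusted p = 0.718), Dok1, a docking protein, by 0.40 ± 0.14 (adjusted p = 0.718) and Ppargc1a, a coactivator of FOXO1, by 0.46 ± 0.14 (adjusted p = 0.677).

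Atf4, a stress-induced transcription factor that acts on Trib3, read -0.30, -0.41 and -0.46 in the transgenic female and males 1 and 2, below all wild-type arrays (-0.22 to 0.21). It differed by -0.39 ± 0.10 (SE; limma adjusted p = 0.653). Trib1, a relative of Trib3, also lay below all wild-type arrays and differed by -0.24 ± 0.09 (adjusted p = 0.718), but its 2 probes disagreed in size, at -0.0705 (adjusted p = 0.930) and -0.40 (adjusted p = 0.666). Pck1, a glucose-producing enzyme, differed by -0.69 ± 0.23 (adjusted p = 0.708) and Socs2, a suppressor of cytokine signalling, by -0.94 ± 0.32 (adjusted p = 0.718). With transgenic male 1 left out, Socs2 differed by -1.44, and with 1 female left out by -0.63.

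For sex, 69 of the 122 genes were positive and 53 negative, with a median of 0.04, and 1 passed in limma (0.351% of all features). At an unadjusted p under 0.05 there were 14 of 122 (9.23% of all features). Vldlr, a lipoprotein receptor on the ATF4 list, read 0.80 and 0.60 in the wild-type and transgenic females and -0.72 to -0.32 in males. It was 2.28-fold higher in females (1.19 ± 0.13 on the log2 scale, SE; limma adjusted p = 0.0132). The call was lost without the array labelled wild-type female (1.13, adjusted p = 0.142) and without wild-type male 2 (1.17, adjusted p = 0.0556). Rps6kb2, an S6 kinase, differed by -1.01 ± 0.21 (adjusted p = 0.148), Ide, the insulin-degrading enzyme, by -0.45 ± 0.11 (adjusted p = 0.235) and Inpp4b, a lipid phosphatase, by -0.37 ± 0.11 (adjusted p = 0.346). The 2 probes of Inpp4b disagreed in size, at -0.48 (limma adjusted p = 0.316) and -0.26 (limma adjusted p = 0.788).

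Transcripts known as FOXO targets were positive for sex in 12 of 16 (median 0.24, against 0.01 over all features), and 0 passed. In 6 of the 16 both females lay above all males: Igfbp1, Ppargc1a, Pdk4, Sesn1, Sesn3 and Apoc3 (6.04% of features), an order that Irs2 shares. At an unadjusted p under 0.05 there were 5, all positive, against 9.23% of features. The 2 probes of Sesn3 disagreed in the size of the sex difference, at 0.45 (limma adjusted p = 0.328) and 0.12 (limma adjusted p = 0.820). Igfbp1, a secreted binding protein repressed by insulin, read 1.24 and 0.13 in the wild-type and transgenic females, and -1.85, -0.39 and -1.89 in wild-type males 2, 3 and 4. It read -1.08 and -1.48 in transgenic males 1 and 2, a difference of 2.05 ± 0.45 (SE; limma adjusted p = 0.173). Pdk4, a kinase that restrains glucose oxidation, differed by 0.95 ± 0.14 (adjusted p = 0.0572) and Ppargc1a by 0.77 ± 0.15 (adjusted p = 0.121). The rest of the 16 lacked the order of Irs2, among them the glucose-producing enzymes G6pc and Pck1. G6pc read 1.02 and -0.81 in the wild-type and transgenic females, against -0.97 to -0.01 in males. Pck1 read 0.39 and -0.66 in these females, against -1.11 to -0.11 in males. Whether FOXO proteins set the values of Irs2 was not tested. Igfbp1, G6pc, Sesn1, Sesn3 and Apoc3 were picked out after their values were seen. For genotype the same 16 were positive in 5 and negative in 11, with a median of -0.05.

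**Figure D4:**
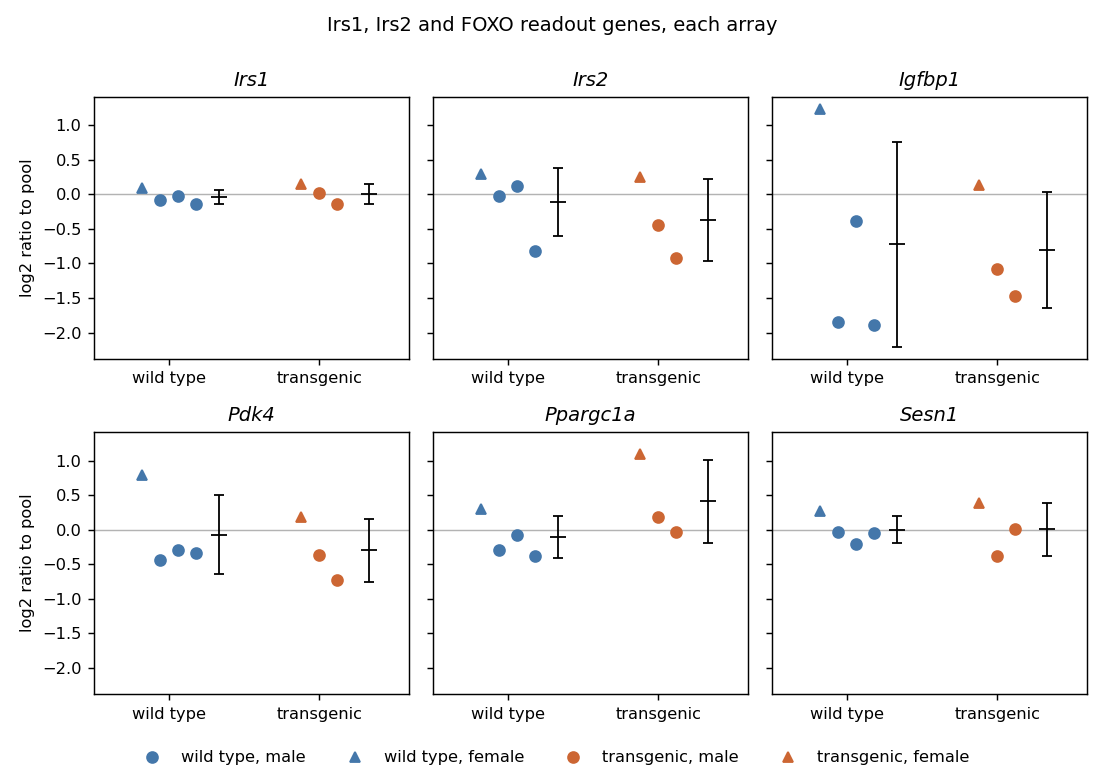
Log2 ratio of animal to pool (vertical axis) by genotype (horizontal axis), with 1 point per array marked by sex. Shown are Irs1, Irs2 and the FOXO targets Igfbp1, Pdk4, Ppargc1a and Sesn1. These targets were taken from the 6 of 16 on the list in which both females lay above all males. In every gene shown both females lie above all 5 males.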

How the data were processed

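The authors deposited 1 log10 ratio per probe and array for 23574 probes, per the file headers and values. Per the labels, extraction used RNeasy columns with a DNase step, and the design included dye swaps. How swaps were combined, background correction, normalization and centring are not given in the sources used here. Column medians ran from -0.01 to 0.03 log2. Signal over background is unknown, so precision is limited by how many arrays there are. The limma p-values set each difference against the spread between arrays, in which variation of mice and of hybridizations cannot be told apart. For the interaction, with 1 female per genotype, that spread came from the males alone.

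Each value was converted to log2 (times 3.32). The platform annotation gave 17824 probes 1 symbol, 50 several and 5700 none, and 0 symbols needed an update. Probes of a gene were averaged, giving 22218 features. limma (3.58.1, R 4.3.3) fitted genotype and sex over all features, with Benjamini-Hochberg adjustment and calls at 0.05. The same fit was run on simulated data with independent noise on each array. That simulation does not cover the correlations between these arrays. Males alone and the interaction were fitted separately. Exact permutation tests used the raw difference of the group means and took no account of sex.

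Members and lists were chosen with earlier results of these data known. Beside the members and Zfp90, the text names the 4 pathway genes each way with the smallest p for genotype, 3 each way for sex, and 3 genes most like the most variable member and the one with the smallest genotype p. Promoters are RefSeq's. Alternatives were centring, quantile normalization, model terms, robust variance, single probes, named genes alone and leaving out each array.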

Additional observations from a re-analysis of the deposited data

Results flagged for a closer look

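In 3 of the 27 genes examined, the array labelled wild-type female stood apart from the 3 wild-type males by more than Dixon's 95% critical value for the gap over the range. It read 0.76 in Socs2 (gap over range 0.876), 0.80 in Vldlr (0.848) and 0.78 in Pdk4 (0.884), above the males each time. Chance alone exceeds a 95% critical value in a small share of groups, and this array is also the only female of its group. Vldlr and Pdk4 were named for a small sex p, which rests on this array and the transgenic female. Socs2 was named for a small genotype p, which also uses this array. The flags are therefore not independent of how the genes were chosen.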

How the results depend on the processing

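No member passed in any alternative: the lowest adjusted p in limma was 0.229 for genotype, 0.209 for sex and 0.306 in males. The genotype difference kept its sign in every alternative for 4 of 9 genes, Irs2 (-0.50 to -0.14), Akt1 (-0.36 to -0.13), Foxo1 (-0.18 to -0.03) and Sirt1 (-0.30 to -0.16), and the sex difference did for 7 of 9. That of Pik3r1 turned to 0.00591 with quantile normalization and 0.0398 in males alone. The sex difference of Akt1 turned to -0.00126 without a genotype term and that of Sirt1 to 0.0272 with quantile normalization, and the male difference of Akt2 to -0.00515 on its first probe. The causes were not tested.

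For genotype, leaving out either female gives the same fit as males alone, because the sex term takes up the other female. These alternatives are therefore a single fit. Leaving out 1 array moved the genotype difference from -0.0819 to 0.00505 for Insr, -0.0131 to 0.0822 for Irs1, -0.0907 to 0.0398 for Pik3r1, -0.0395 to 0.0618 for Akt2 and -0.0340 to 0.0620 for Grb10. It moved the sex difference from -0.18 to 0.20 for Akt1 and -0.10 to 0.0640 for Sirt1. In males it moved Insr from -0.11 to 0.0330, Irs1 from -0.0592 to 0.10, Pik3r1 from -0.0387 to 0.0928, Akt1 from -0.29 to 0.0221, Akt2 from -0.0772 to 0.0748 and Foxo1 from -0.18 to 0.0678.

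Over all features, the genotype count of 0 was 7 in males alone and 0 to 7 with 1 array left out. The male count of 7 was 4 with quantile normalization, 0 with wild-type male 2 left out, 55 with wild-type male 4 left out, and 4 and 1 with transgenic male 1 and 2 left out. The sex count of 78 was 47 with quantile normalization, 36 with the wild-type female left out, 39 and 48 with wild-type males 2 and 4 left out, 254 with the transgenic female left out and 45 with transgenic male 2 left out. The interaction count of 16 was 3 with quantile normalization, 7 over named genes alone, 4 with wild-type male 2 left out and 77 with wild-type male 4 left out. Pdk4 passed for sex over named genes alone (limma adjusted p = 0.0491) and without transgenic male 1 (limma adjusted p = 0.0326). Its limma adjusted p rose to 0.163 with quantile normalization, 0.172 without wild-type male 2 and 0.173 without transgenic male 2. Its sex difference was 0.73 without the wild-type female and 1.14 without the transgenic female. No paired analysis was possible because the genotypes share fewer than 2 replicate numbers. Signal over background was not known for any probe.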
